A study of Homo sapiens with 6 samples.

Results

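NF-kB is a family of dimeric transcription factors, and 10 of the genes that encode its subunits and the proteins that feed back on them were followed through bulk RNA sequencing of PANC-1, as the labels call the cells. PANC-1 is an established line from a human pancreatic ductal carcinoma. The 10 were taken by gene symbol from 60623 gene rows. They are the canonical subunit genes NFKB1, RELA and REL, the noncanonical subunit genes NFKB2 and RELB, the IkB inhibitor genes NFKBIA and NFKBIE, and the feedback regulators TNFAIP3, BIRC3 and TRAF1. The series compared 3 libraries whose titles name a short hairpin RNA against STN1 with 3 libraries of a control hairpin, which the table heads scramble. Every library is labelled as PANC-1 grown in DMEM with serum, and no agent that would stimulate NF-kB is named. The genotype label reads WT for the control libraries. For the others it reads STN1, STN2 and STN3 knockdown in turn, and the titles were used for grouping. The labels call the libraries biological replicates but do not describe separate cultures, so the spread behind each p-value is that of these 6 libraries and may be partly technical. In bulk RNA, fewer cells of a type and less RNA per cell cannot be told apart.

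In resting cells the dimers of RELA or REL with the processed product of NFKB1 are held in the cytoplasm by IkB proteins. The canonical route frees them when the IKK complex phosphorylates IkB. The noncanonical route runs through the kinase encoded by MAP3K14, which with CHUK triggers processing of the NFKB2 precursor and so frees RELB dimers. TRAF2, TRAF3, BIRC2 and BIRC3 keep that kinase low by marking it for degradation. Many of these genes, among them NFKBIA, TNFAIP3, BIRC3, TRAF1, NFKB2 and RELB, are themselves textbook targets of NF-kB, which makes their transcripts a common readout of the pathway. RNA levels do not show IkB degradation, precursor processing or movement to the nucleus.

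The libraries did not separate by STN1, and they differed far beyond this pathway. STN1 had 387, 346 and 278 reads in control and 303, 306 and 275 in libraries labelled shSTN1 (log2 fold change -0.15, edgeR adjusted p = 0.253), so every direction given here follows the titles. The cell cycle inhibitor locus CDKN2A had 3882 to 3968 reads per control library and 0 in every library labelled shSTN1. PANC-1 is known for a homozygous deletion of CDKN2A, so the reads in the control libraries go against their cell line label, and every control level and direction given here is that of libraries so labelled. The adaptor gene IRS4 had 5470 to 8457 reads against 0 to 3. The 10 markers of epithelium and ductal carcinoma summed to 953 to 1017 CPM in control, where CPM is reads per 1000000 after library scaling, and to 5778 to 5953 CPM in libraries labelled shSTN1. The secreted guidance gene SLIT2 had 3907 to 5731 reads per control library and 0 in the others. For the NF-kB genes, an effect of the hairpin and a difference in the cells themselves cannot be told apart. Words such as rose and fell mean higher and lower in libraries labelled shSTN1 than in control. The 10 leukocyte markers, listed because blood cells are rich in NF-kB transcripts, summed to 16.7 to 18.5 CPM in control and 20.2 to 22.7 CPM in libraries labelled shSTN1, most of it from CORO1A. CD3E had 0 reads in all libraries, and PTPRC, which defines leukocytes, stood at 0 CPM in control and 0.033 CPM in libraries labelled shSTN1. Fibroblast markers summed to 66.9 to 81.4 against 149 to 164 CPM, mostly COL1A1 and COL3A1, and 5 endothelial markers to at most 2.49 CPM. The fibroblast markers did not move together. COL1A1 (46.7 to 124 CPM), COL3A1, PDGFRB and COL1A2 had higher means in libraries labelled shSTN1. LUM (0.48 to 0.032 CPM), PDGFRA (0.43 to 0.22 CPM), ACTA2 (2.12 to 1.66 CPM) and DCN had lower ones. The part of these markers' cells in the results was not tested.

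The 10 genes are protein-coding and lie on 8 chromosomes (GRCh38, GENCODE 29). The canonical subunit genes are NFKB1 (ENSG00000109320.13) at chr4:102501329-102617302, RELA (ENSG00000173039.19) at chr11:65653596-65663094 and REL (ENSG00000162924.14) at chr2:60881521-60931610. The noncanonical subunit genes are NFKB2 (ENSG00000077150.20) at chr10:102394110-102402529 and RELB (ENSG00000104856.14) at chr19:45001430-45038198. NFKBIA (ENSG00000100906.10) lies at chr14:35401511-35404749 and NFKBIE (ENSG00000146232.16) at chr6:44258166-44265788. TNFAIP3 (ENSG00000118503.15) lies at chr6:137867188-137883312, BIRC3 (ENSG00000023445.14) at chr11:102317450-102339403 and TRAF1 (ENSG00000056558.11) at chr9:120902393-120929173.

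Promoters of 8 of them were found in the RefSeq table (GRCh38.p14), and the 250 bases before each listed start were searched on both strands for the 10-letter NF-kB consensus, the sequence to which the dimers bind. It was found at some start of 6 of these 8 genes, NFKB1, REL, NFKB2, NFKBIA, TNFAIP3 and BIRC3, and at none of the starts of RELA and TRAF1. Of all genes in the table, 11.8% had it in the same window, and 10.0% of all 35116 starts did. The stretches are shown because NF-kB dimers are known to bind such letters, and most of these genes are textbook targets. Capitals mark the matches, and overlapping matches run together. Stretches within annotated exons are cut to the match.

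NFKBIA: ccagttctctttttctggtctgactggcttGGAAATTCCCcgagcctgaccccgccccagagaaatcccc
BIRC3: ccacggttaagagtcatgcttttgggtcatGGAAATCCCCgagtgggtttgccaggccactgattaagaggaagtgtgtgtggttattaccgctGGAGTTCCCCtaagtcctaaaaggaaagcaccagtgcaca
TNFAIP3: GGAAAGTCCCgtGGAAATCCCC
NFKB2: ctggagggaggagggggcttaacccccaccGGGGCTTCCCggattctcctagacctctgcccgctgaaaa
NFKB1: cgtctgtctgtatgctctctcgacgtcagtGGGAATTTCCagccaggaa
REL: GGGAAATTCCC

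The stretch of NFKBIA lies at chr14:35404791-35404860 on the minus strand, with its match 81 to 72 bases before the start. That of BIRC3 lies at chr11:102317255-102317388 on the plus strand, with matches that begin 199 bases and end 126 bases before the start. On the plus strand are also those of TNFAIP3 (chr6:137867192-137867213), NFKB2 (chr10:102395499-102395568, before the third of 3 listed starts; NFKB2 has 5 matches before its starts, and the 4 that lie in annotated exons are not shown), NFKB1 (chr4:102501280-102501328) and REL (chr2:60881527-60881537). In REL the 11 capitals hold 2 overlapping matches on opposite strands. A match is a description of letters and shows no binding. The genes with a match include REL, whose level did not pass the test described next, and the genes without are RELA and TRAF1, whose levels did.

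Most of the subunit and feedback genes had more RNA under the STN1 hairpin label. Of the 10, 9 were higher and 0 lower by edgeR's quasi-likelihood test at an adjusted p under 0.05. None, 0 of 10, was lower at an unadjusted p under 0.05 or by limma-voom. Past the threshold, 6 of 10 were at least 2-fold higher. The background is large, since 74.1% of all 17451 genes tested passed in either direction, 35.6% higher and 38.5% lower, and 15.7% passed with an at least 2-fold higher level. Tested against a 1.5-fold change with edgeR's glmTreat, the same 9 genes passed where 19.2% of all genes did so as higher. The median log2 fold change of the 10 was 1.60, against -0.03 for all genes tested. The members were chosen with earlier results known, so these counts carry no test of the list. All 10 passed the low-count filter.

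**Figure D1:**
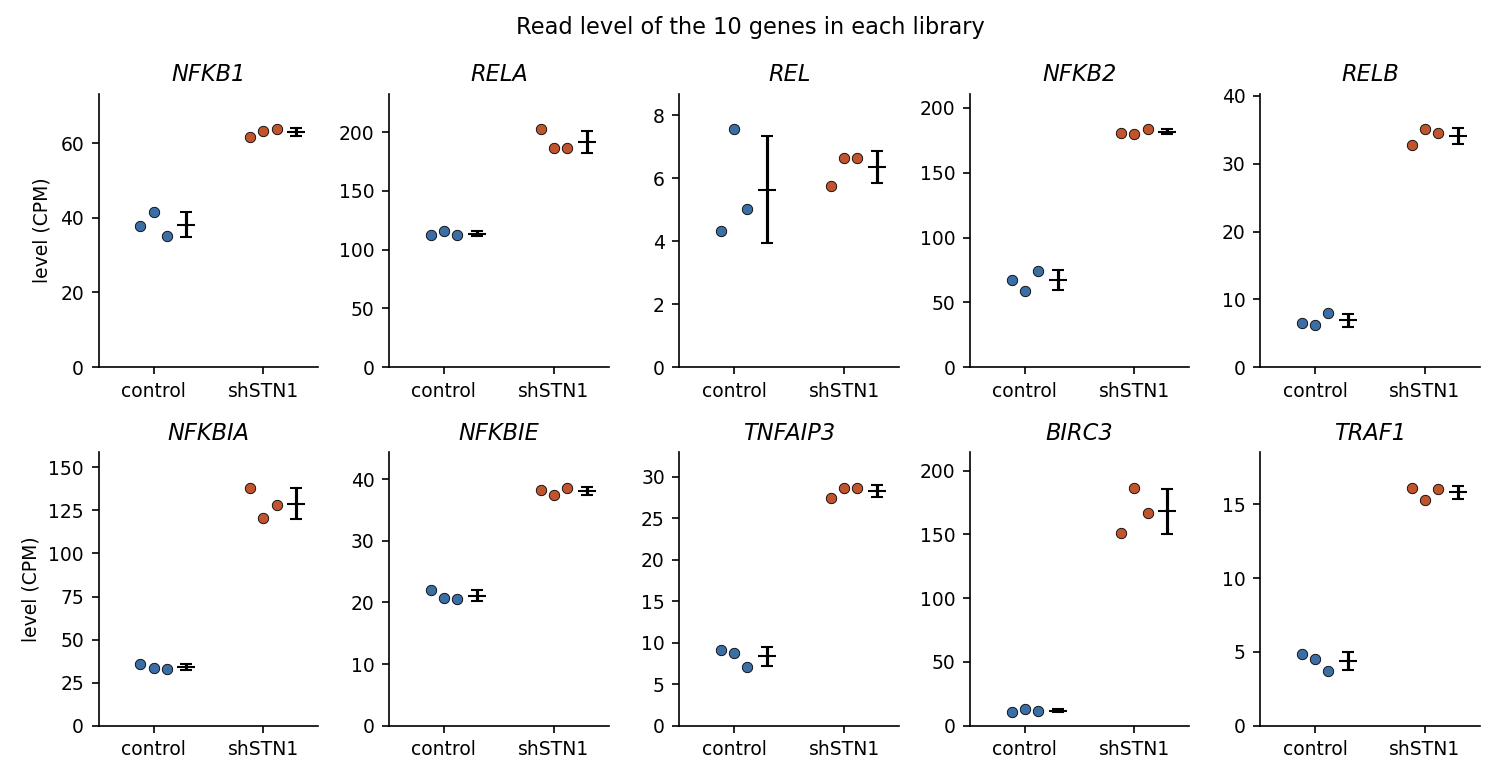
Level of each of the 10 genes in CPM (linear axis from 0) in the 3 control libraries (blue) and the 3 libraries labelled shSTN1 (orange), with mean and SD of 3 libraries as black bars. In 9 panels the groups lie apart, with libraries labelled shSTN1 higher, as for 36.6% of all genes tested. In the REL panel a control library at 7.56 CPM stands above all libraries labelled shSTN1.

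Among the canonical subunits, NFKB1 and RELA rose by less than 2-fold and REL did not pass. RELA, the main transactivating subunit, stood at 112, 116 and 112 CPM in control and at 202, 187 and 186 CPM in libraries labelled shSTN1. The groups did not overlap, and the log2 fold change came to 0.76 (SE 0.042, edgeR adjusted p = 2.56e-12). NFKB1, which encodes the precursor of the usual partner of RELA, stood at 37.8, 41.7 and 35.0 CPM against 61.7, 63.2 and 63.7 CPM. Its lowest library labelled shSTN1 lay above the highest control, with a log2 fold change of 0.72 (SE 0.074, edgeR adjusted p = 3.04e-09). Groups without overlap and higher in libraries labelled shSTN1 were found for 36.6% of all genes tested.

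REL, the subunit best known from lymphocytes, was scarce in every library. It had 90, 169 and 93 reads in control, or 4.33, 7.56 and 5.04 CPM, and 118, 145 and 117 reads in libraries labelled shSTN1, or 5.76, 6.64 and 6.64 CPM. The second control library was the highest of all and the other controls the lowest, so the groups overlapped. The log2 fold change was 0.16, with a limma-voom 95% interval of -0.19 to 0.57 and an edgeR adjusted p of 0.43. The upper bound lies below the value of RELA. Without control replicate 2 the value became 0.43 (edgeR adjusted p = 0.0445), and without control replicate 1 it became -0.01 (adjusted p = 0.953), within 0.0445 to 1 over the alternatives run. A noncoding gene on the same strand shares 5702 exonic bases with REL and is listed at 0 reads throughout, so reads in that stretch may have been assigned to neither gene.

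The noncanonical subunits rose more. NFKB2 stood at 67.3, 59.1 and 74.4 CPM in control and at 181, 180 and 184 CPM in libraries labelled shSTN1. The lowest library labelled shSTN1 was far above the highest control, and the log2 fold change came to 1.44 (SE 0.097, edgeR adjusted p = 6.20e-18). RELB, whose protein pairs with the processed NFKB2 product, stood at 6.54, 6.22 and 7.96 CPM against 32.7, 35.1 and 34.5 CPM. This was a 4.95-fold difference, with a log2 fold change of 2.31 (SE 0.111, edgeR adjusted p = 3.42e-18), and 3.19% of the genes tested had a higher value. Both noncanonical intervals lay above both canonical ones that passed: the limma-voom 95% intervals were 1.30 to 1.60 for NFKB2 and 2.06 to 2.57 for RELB, against 0.55 to 0.88 for NFKB1 and 0.63 to 0.89 for RELA.

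**Figure D2:**
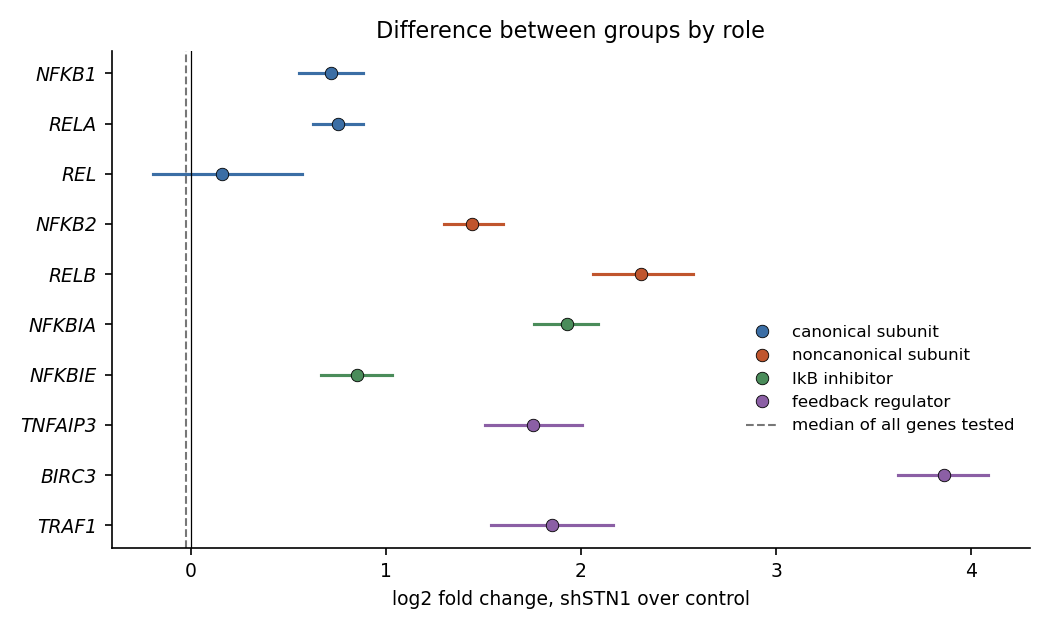
Log2 fold change (edgeR, points) of the 10 genes, coloured by role, with limma-voom 95% intervals as lines and the median of all genes tested, -0.03, as a dashed line. The NFKB2 and RELB intervals do not reach those of NFKB1, RELA and REL, and BIRC3 at 3.86 stands furthest to the right of the 10.

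Set against each other within each library, the noncanonical subunits gained on the canonical ones. The mean log2 CPM of NFKB2 and RELB minus that of NFKB1, RELA and REL was -0.33, -0.79 and -0.15 in the control libraries and 0.88, 0.89 and 0.89 in libraries labelled shSTN1. The control libraries were spread and the others nearly equal, and the groups did not overlap. The difference between groups was 1.31 (SE 0.188), and 1.13 when REL was left out of the canonical mean. For the precursor pair, NFKB2 minus NFKB1 went from a mean of 0.81 ± 0.292 (SD, n = 3) to 1.53 ± 0.0219, a 1.65-fold larger rise of NFKB2. For the transactivating pair, RELB minus RELA went from -4.03 ± 0.205 to -2.49 ± 0.120, a 2.90-fold larger rise of RELB. These differences are given without a p-value, since they score genes chosen with results known.

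**Figure D3:**
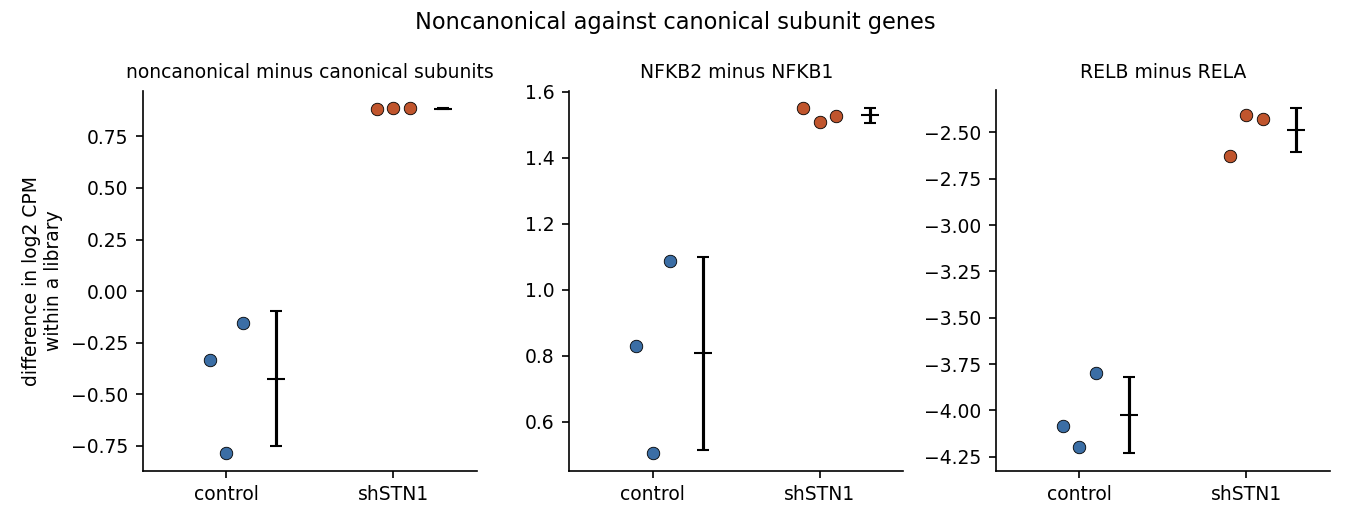
Differences in log2 CPM between noncanonical and canonical subunit genes within each library, for the arm means and for both pairs (axes do not start at 0), with mean and SD of 3 libraries as black bars. In each panel the 3 libraries labelled shSTN1 (orange) lie above the 3 control libraries (blue).

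Levels of different genes were compared per length, as RPKM (CPM per kilobase of exonic sequence). In control the order was RELA at 20.8 ± 0.379 RPKM, NFKB2 at 14.9 ± 1.71, NFKB1 at 6.10 ± 0.534, RELB at 2.28 ± 0.306 and REL at 0.429 ± 0.129 (SD, n = 3), with neighbours in that order apart by more than their SDs. In libraries labelled shSTN1, NFKB2 led at 40.5 ± 0.417 RPKM, followed by RELA at 35.1 ± 1.69, RELB at 11.2 ± 0.407, NFKB1 at 10.0 ± 0.170 and REL at 0.482 ± 0.0385. REL may be understated in both groups, since its length counts the 5702 exonic bases shared with a gene listed at 0 reads. The exchange of places between NFKB2 and RELA, and between RELB and NFKB1, rests on the length used. With the longest transcript as length, RELA was ahead of NFKB2 at 60.3 against 53.1 RPKM, and NFKB1 ahead of RELB at 15.4 against 14.9 RPKM. RELB therefore came close to NFKB1 in libraries labelled shSTN1 under both lengths, whereas in control it was below it at 3.01 against 9.34 RPKM also by the longest transcript.

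The IkB inhibitors differed from each other in the size of their rise. NFKBIA, an IkB that NF-kB induces rapidly and that ends its signal, stood at 35.8, 33.2 and 32.7 CPM in control and at 138, 121 and 128 CPM in libraries labelled shSTN1. Every library labelled shSTN1 was above every control, and the log2 fold change came to 1.93 (SE 0.0697, edgeR adjusted p = 8.70e-21). NFKBIE, an inhibitor that also retains REL and RELA dimers, stood at 22.1, 20.7 and 20.6 CPM against 38.3, 37.4 and 38.6 CPM. Its log2 fold change of 0.85 (SE 0.0351, edgeR adjusted p = 8.05e-10) was close to those of RELA and NFKB1. NFKBIA rose 2.25-fold more than RELA, the subunit it holds back: the within-library difference in log2 CPM was -1.74 ± 0.0809 in control and -0.57 ± 0.0486 in libraries labelled shSTN1. Per length, NFKBIA stood at 14.3 RPKM in control, below RELA, and at 54.3 RPKM in libraries labelled shSTN1, above RELA, and by the longest transcript at 21.8 and 82.8 RPKM, with the same change of order.

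The feedback regulators of receptor signalling held the largest value among the 10. BIRC3, a ubiquitin ligase and inhibitor of apoptosis bound to TNF receptor complexes, had 219, 285 and 211 reads in control and 3092, 4075 and 2939 in libraries labelled shSTN1. As a level this was 10.5, 12.8 and 11.4 CPM against 151, 187 and 167 CPM, a 14.5-fold difference (log2 fold change 3.86 with SE 0.118, adjusted p = 1.09e-26 by edgeR). Of the genes tested, 0.264% had a higher log2 fold change. Its paralog BIRC2, chosen after its values were seen, went from 36.1 ± 5.13 to 58.4 ± 8.06 CPM (log2 fold change 0.69). BIRC3 minus BIRC2 thus went from -1.63 to 1.53 in log2 CPM, an 8.90-fold larger rise of BIRC3.

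TNFAIP3, a ubiquitin-editing enzyme that shuts down signalling from TNF and Toll-like receptors, stood at 9.14, 8.77 and 7.10 CPM in control and at 27.4, 28.7 and 28.7 CPM in libraries labelled shSTN1. The groups lay apart, with a log2 fold change of 1.75 (SE 0.114, edgeR adjusted p = 4.83e-15). TRAF1, an adaptor that joins TRAF2 at TNF family receptors, stood at 4.86, 4.52 and 3.68 CPM against 16.1, 15.3 and 16.0 CPM. Its log2 fold change came to 1.85 (SE 0.119, edgeR adjusted p = 2.30e-13), close to that of TNFAIP3. An antisense gene shares 95 exonic bases with TNFAIP3 and has 8 to 26 reads per library, whereas TNFAIP3 itself had 131 to 196 reads in control and 505 to 626 in libraries labelled shSTN1.

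The rest of the pathway was read from 6 further lists of genes. The 4 remaining IkB family genes all rose, where 35.6% of all genes tested did. NFKBIB, a further cytoplasmic inhibitor, went from 82.9 ± 4.52 to 310 ± 8.73 CPM (log2 fold change 1.90), and the nuclear IkB gene BCL3, which binds the processed NFKB1 and NFKB2 products, from 15.9 ± 1.96 to 59.3 ± 2.55 CPM (1.90). NFKBIZ and NFKBID, which also act in the nucleus, had log2 fold changes of 1.57 and 1.55. The edgeR adjusted p of these 4 genes lay between 1.41e-22 and 4.19e-12.

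The kinases had calls in both directions, at shares near or below those of all genes tested (35.6% higher and 38.5% lower). Of 11 genes of the IKK complex and its upstream kinases, 3 rose, 4 fell and 4 did not pass, with a median of -0.01. MAP3K14, the kinase of the noncanonical route, rose from 11.5 ± 0.492 to 88.3 ± 4.0 CPM (log2 fold change 2.94 with SE 0.052, adjusted p = 6.93e-24 by edgeR). IKBKB, the catalytic IKK subunit of the canonical route, fell from 48.7 ± 3.59 to 20.9 ± 1.91 CPM (-1.22, SE 0.0975, edgeR adjusted p = 3.50e-13). The regulatory subunit gene IKBKG rose (0.69), and TAB1, an adaptor of the kinase encoded by MAP3K7, fell (-1.21). CHUK, the IKK subunit shared by both routes and chosen after its values were seen, stood at 53.8 ± 3.05 and 52.1 ± 9.14 CPM and did not pass (edgeR adjusted p = 0.68).

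Of 14 receptor adaptors and ubiquitin ligases, 9 rose, 1 fell and 4 did not pass (median 0.62), where 35.6% of all genes tested rose and 38.5% fell. MYD88, the adaptor of Toll-like and interleukin receptors, rose from 9.24 ± 0.671 to 34.0 ± 0.286 CPM (log2 fold change 1.88). RIPK1, which scaffolds TNF receptor signalling, had 0.83, and the linear ubiquitin ligase subunit genes SHARPIN and RBCK1 0.72 and 0.69. Of the genes that restrain the MAP3K14 kinase, named after their values were seen, TRAF3 went from 85.5 ± 4.97 to 112 ± 4.16 CPM (0.39, edgeR adjusted p = 1.16e-05), and TRAF2 stood at 50.2 ± 6.52 and 51.5 ± 1.51 CPM (adjusted p = 0.711). Among 11 other negative regulators, 5 rose, 4 fell and 2 did not pass (median 0.11), shares near those of all genes tested. COMMD1, which promotes loss of RELA, rose (1.69), as did TNIP2 (0.98), whose product binds that of TNFAIP3, and the RNA-degrading feedback gene ZC3H12A (1.28), whereas N4BP1 fell (-0.63).

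Receptors and targets rose in nearly every case that could be tested, where 35.6% of all genes tested did. Of 18 receptor and ligand genes, 8 did not pass the low-count filter and the other 10 all rose. Of these, LTBR and TNF, named after their values were seen, had few reads, 3 to 12 and 1 to 5 per control library. Leaving out each library gave 9 to 10 called. TNFRSF12A, the TWEAK receptor and a known input of the noncanonical route, went from 33.7 ± 2.65 to 167 ± 7.56 CPM (log2 fold change 2.31). TNFRSF1B, a TNF receptor, went from 3.97 ± 0.346 to 42.2 ± 3.11 CPM (3.40), the RANK gene TNFRSF11A had 1.35, and the interleukin-1 receptor gene IL1R1 2.33. Of 25 other target genes, 24 had a row of their own, 22 passed the filter and 21 rose. TNFRSF9, named after its value was seen, did not pass the test (edgeR adjusted p = 0.767). BIRC2, which rose, is counted both here and among the receptor adaptors and ubiquitin ligases. PLAU, the urokinase gene, went from 35.7 ± 1.80 to 510 ± 12.1 CPM (3.84), and TNFAIP2 (3.16), IER3 (2.56) and the cytokine gene LIF (3.10) followed. Genes that pass a filter through the group where they are high tend to differ, so these counts describe the genes tested and not the full lists. IL6, also named after its values were seen, had at most 0.129 CPM as a group mean and was not tested.

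**Figure D4:**
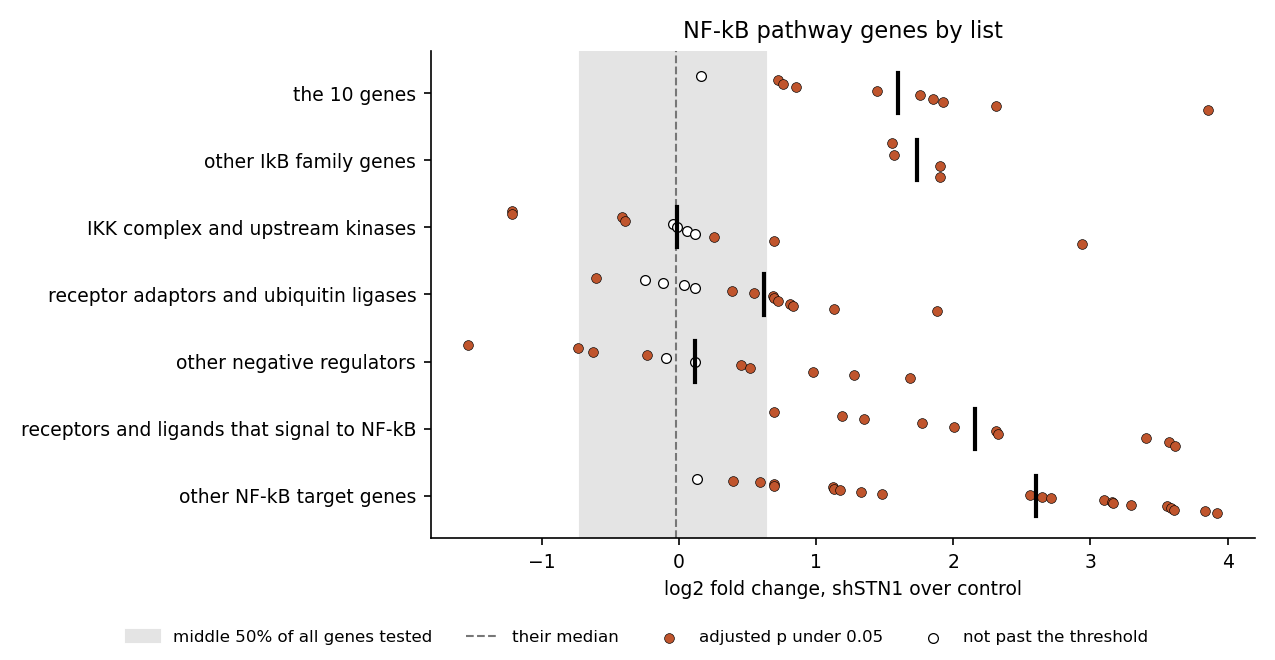
Log2 fold change of each tested gene of the 10 members and of 6 further pathway lists (filled points passed an adjusted p under 0.05, open points did not), with list medians as black bars. The grey band, from -0.72 to 0.63, holds the middle 50% of all genes tested, and 9 of the 10 members, all but REL, lie to its right.

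Each gene was also set beside the tested genes within 1 Mb of it on the chromosome. Most members stood well above their neighbourhood's median. Genes with a high log2 fold change exceed most genes anywhere, so this shows no trait of the locus. Among all genes tested, 5.39% were above NFKBIA, 5.94% above TRAF1, 3.19% above RELB and 9.54% above NFKB2. NFKBIA had a log2 fold change of 1.93 where its 18 neighbours had a median of -0.36, and TRAF1 1.85 where 16 neighbours had -0.18, and none of these neighbours reached the member's value. RELB exceeded 65 of 67 neighbours, whose median was -0.25, and NFKB2 34 of 36. TNFAIP3 stood at 1.75 where 11 neighbours had a median of 0.06. For NFKB1, 9 neighbours had a median of -0.28, and 5 of them fell. Around BIRC3, 8 of 10 neighbours rose and the median was 1.11, which BIRC3 exceeded by 2.75. The collagenase gene MMP1, a neighbour chosen after its value was seen and higher in log2 fold change than BIRC3, stood at 7.73 CPM in libraries labelled shSTN1.

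RELA, NFKBIE and REL were closer to their surroundings, at 0.70 or less above the median. RELA lies where 58 of 93 neighbours rose and 13 fell (median 0.47), and 31 of them had a value at least as high as its own. NFKBIE exceeded 25 of 30 neighbours (median 0.16) and REL 9 of 16 (median -0.04). Their own log2 fold changes were 0.85 and 0.16, and their neighbours did not mostly rise, with 11 of 30 and 6 of 16 higher. Outside the 10, NFKBIB lies among 55 genes of which 52 rose (median 1.71), near its own 1.90. NFKBID, at 1.55, lies among 64 genes of which 43 rose and 8 fell (median 0.76). IKBKB lies among 20 genes of which 14 fell (median -1.04), near its own -1.22, and TAB1 among 36 of which 23 fell. BCL3 exceeded 57 of 62 neighbours, with a median of -0.15. MAP3K14 stood at 2.94 where 47 neighbours had a median of -0.18. The part of the chromosomal surroundings in these differences was not tested.

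**Figure D5:**
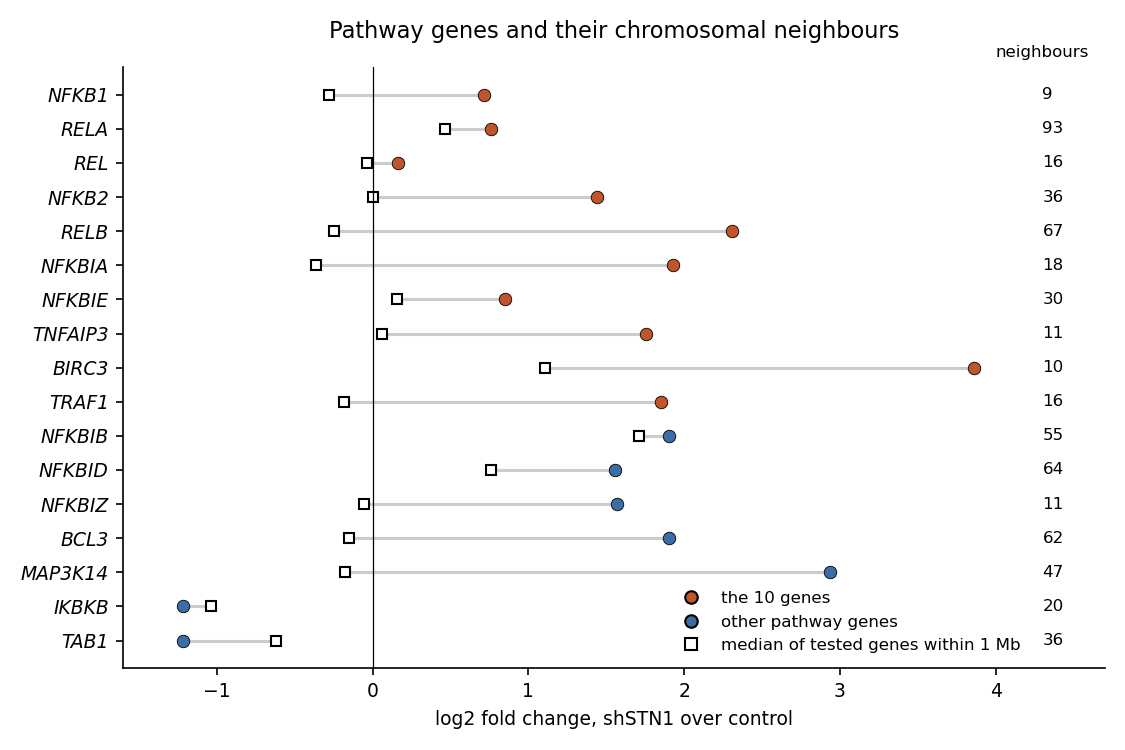
Log2 fold change of the 10 genes (orange) and of 7 other pathway genes (blue), joined to the median of the tested genes within 1 Mb (open squares), with the number of those neighbours at the right. NFKBIB, IKBKB and RELA lie near their neighbours' medians, whereas MAP3K14, BIRC3, RELB, NFKBIA, BCL3 and TRAF1 lie more than 2 above theirs.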

How the data were processed

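The authors deposited raw read counts per gene, without normalization, for 6 libraries. Reads were handled with STAR 2.7.2b and featureCounts 2.0.1, besides cutadapt and FastQC, on GRCh38, per the submitters' processing notes. Annotation release and strand setting: not given in the sources used. Reads of overlapping genes can therefore be split or lost. From 60668 rows, 45 second copies of pseudoautosomal genes were left out, and 58516 of the remaining rows were found in GENCODE 29, which gave coordinates and exonic lengths. Totals ran from 17357223 to 23336942 reads.

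Counts were fitted with edgeR 4.0.16 (R 4.3.3): filterByExpr, TMM factors, robust quasi-likelihood test over all 6 libraries without covariates, p-values adjusted by Benjamini and Hochberg over 17451 genes, threshold 0.05. CPM uses TMM-scaled totals. The SEs were computed from log2 CPM (prior count 2) as that of a difference of group means, outside the fit. Intervals are from limma-voom (limma 3.58.1). The test was checked on simulated counts. Alternatives were upper-quartile and RLE factors, different filters on low counts, the replicate block, DESeq2 1.42.0, limma-voom, stricter thresholds and leaving out each library, and, chosen after seeing the data, library totals without factors. No replicates were copies of each other: pairs within a group gave a chi-square of 3.02 to 8.89 for each degree of freedom. Figures used matplotlib 3.10.9.

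The members and the gene lists were chosen with earlier results of these data known. Named were the members, STN1, CDKN2A, IRS4, SLIT2, markers by list and, from each further list, the 4 genes with the smallest adjusted p. Other genes are said to be chosen after their values were seen. SOD2 has 2 rows under its symbol and was not used. RELB and NFKBIE have no entry among the promoters used here.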

Additional observations from a re-analysis of the deposited data

How the results depend on the processing

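NFKB1, RELA, NFKB2, RELB, NFKBIA, NFKBIE, TNFAIP3, BIRC3 and TRAF1 stayed higher and past the threshold under all 16 alternatives run. REL is the exception: it was at -0.039 with library totals without scaling factors, and at -0.014 to 0.43 with each library left out. Library totals moved the median of all genes by -0.199, put STN1 past the threshold (-0.35, edgeR adjusted p = 0.00909), and split the calls into 4940 higher and 8060 lower, against 6209 and 6720. With glmTreat against 1.5-fold, 7306 genes passed instead of 12929, with 9 members among them, 3 instead of 7 kinases, 5 instead of 10 adaptors and 4 instead of 9 negative regulators. Leaving out each library gave 9 to 10 members called and an arm difference of 1.13 to 1.44. With the longest transcript as length, the log2 RPKM of RELA over RELB was 3.56 in control and 2.02 in shSTN1, against 3.19 and 1.64, and that of NFKB2 over NFKB1 in shSTN1 1.79, against 2.01. The replicate block gave 12742 genes and 9 members, changed no call of a member, and left the count of each pathway list as it was. Same-numbered control and shSTN1 libraries deviated from their group means with correlations of -0.0123, 0.0171 and -0.0337, which gives no pairing. TRAF1, REL and RELB had the lowest mean CPM of the members in control, with 68 to 169 reads per library. REL had the largest SE of the members, 0.245.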
